A study of Mus musculus with 8 samples.

Results

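The genes described here are the stress-response transcription factor NRF2 (gene Nfe2l2), its cytosolic sensor KEAP1 (Keap1) and 8 of the best known genes that NRF2 switches on: Nqo1, Hmox1, Gclc, Gclm, Txnrd1, Srxn1, Slc7a11 and Osgin1. They were taken by name, 10 genes of 22180 with a cluster of their own on the array, and all 10 were measured. A transcript cluster is the array's unit for a gene. Each gene is represented by its brightest cluster among those that the platform annotation gives exactly 1 symbol. The data are 8 liver samples, each labelled as from a male mouse of C57BL/6J background. Of these, 3 were wild-type (WT) and 5 carried a knockout (KO) of Abhd15, an alpha/beta hydrolase domain gene best known from fat cells. Both groups ate normal chow, and the labels give up to 14 weeks on that diet while the design text gives 14 weeks as the age. Both groups had fasted overnight and had then been given chow for 1 hour before the liver was frozen. Which part of Abhd15 was deleted, and whether in every tissue, is not stated in the labels or the design text. The comparison asks whether the loss of Abhd15 comes with a changed NRF2 programme in liver shortly after a meal.

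In unstressed cells KEAP1 holds NRF2 and, with the ligase scaffold CUL3, hands it to the proteasome. Oxidants and electrophiles modify KEAP1, NRF2 then accumulates, pairs with a small MAF protein and binds antioxidant response elements near its target genes. In liver this programme is known for glutathione synthesis, thioredoxin-linked repair, quinone reduction and heme breakdown. Because KEAP1 acts on the NRF2 protein, transcript levels of Nfe2l2 and Keap1 do not measure the pathway's activity, and the targets are read beside them.

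Antioxidant response elements share the core TGACNNNGC. This core was searched on both strands in RefSeq promoter windows of 300 bases on GRCm38.p6, which span the gene start. Windows were matched for 8 of the 10 genes, all except Hmox1 and Gclc, and 4 of their 10 windows held the core (40%), against 12.4% of all 32851 windows. The windows of Keap1, Nqo1, Slc7a11 and Osgin1 held no match. The 3 matches that lay before a start are shown. These letters lie beside the regulator itself and beside an enzyme of each thiol system measured below. Capitals mark the core on the gene's strand or, for Gclm and Txnrd1, its reverse complement.
Nfe2l2, chr2:75704845-75704913, minus strand: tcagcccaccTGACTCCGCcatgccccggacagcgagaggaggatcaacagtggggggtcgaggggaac
Gclm, chr3:122245373-122245481, plus strand: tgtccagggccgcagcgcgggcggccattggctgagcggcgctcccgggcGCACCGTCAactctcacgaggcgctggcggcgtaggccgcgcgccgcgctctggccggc
Txnrd1, chr10:82859064-82859172, plus strand: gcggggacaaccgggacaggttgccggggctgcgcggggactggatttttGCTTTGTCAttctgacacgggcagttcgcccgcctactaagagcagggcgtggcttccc
The core of Nfe2l2 began 240 bases before the start, that of Gclm 134 and that of Txnrd1 92. The Txnrd1 match was in 1 of 3 windows of that gene. In Srxn1 the match lay after the start. None of the 4 overlapped TGACTCA or TGAGTCA, the AP-1 words that resemble the core. A match of these letters is a description, and binding was not measured.

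On the log2 scale the WT livers had a mean Abhd15 value of 5.64 ± 0.176 (SD, n = 3). The KO livers had one of 5.12 ± 0.0775 (SD, n = 5), with every KO array under every WT array. Of all clusters, 2.44% had groups that did not overlap in that direction. The Abhd15 log2 difference was -0.521 (SE 0.129, limma adjusted p = 0.795, exact permutation p = 0.0179). The deleted gene itself thus did not pass the adjusted threshold used below. Every KO array still read Abhd15 above its array median. Array medians lay between 2.99 and 3.05. The first principal component (22.1% of the variance) separated KO 1 and KO 2 from the rest and the next (15.8%) separated KO 4, so results are also given without KO 1 and KO 2. The labelled tissue was checked with 10 hepatocyte markers, none of which lay under the array median. Their mean lay between 11.886 and 11.951 in WT and between 11.792 and 11.996 in KO. Whole liver holds several cell types, and fewer cells of a type cannot be told apart from less RNA per cell.

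Across the NRF2 set no gene passed an adjusted p of 0.05 (limma, adjusted over all 23521 clusters with 1 symbol), and 0 clusters of all those tested did (0% called). At an unadjusted p under 0.05 there was 1 member, Hmox1, higher in KO, against 6.08% of all clusters in either direction and 2.75% in that direction. That call ended without WT 1, WT 2 or KO 2. Hmox1 and Nfe2l2 were the 2 members whose KO and WT arrays did not overlap, both with KO higher, against 4.43% of all clusters in either direction and 1.99% in that direction. The other 8 overlapped. Of the 10 log2 differences, KO minus WT, 4 were above 0 and 6 below, with a median of -0.12 (-0.07 without KO 1 and KO 2), beside a median of -0.0018 over all clusters. With so few arrays a p above the threshold does not show that a gene was equal in the groups, so the 95% interval of each difference is given.

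**Figure D1:**
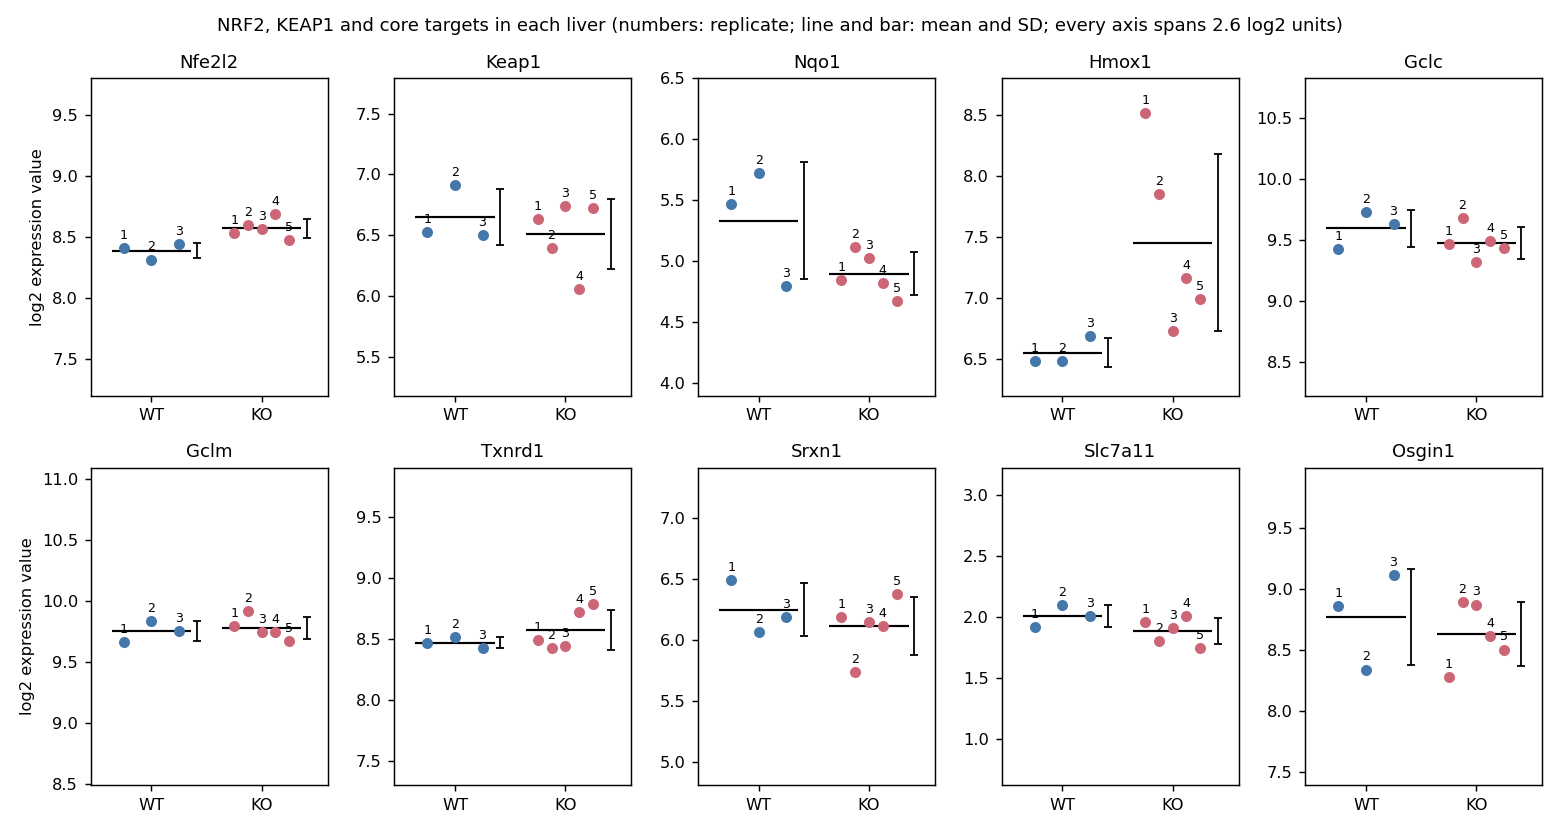
Each panel shows 1 gene, with the log2 expression value on the vertical axis and the 3 WT (blue) and 5 KO (red) livers as points labelled with their replicate number. Horizontal lines are group means, bars are the SD, and every axis spans the same number of log2 units. Hmox1 in KO runs from 6.736 to 8.523, while the 2 groups of Gclm lie on top of each other.

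Nfe2l2 (cluster 17386700) was slightly higher in every KO liver, without passing the adjusted threshold. It read 8.413, 8.317 and 8.442 in the WT livers and 8.538, 8.597, 8.565, 8.686 and 8.473 in the KO livers. Each KO liver lay above each WT liver, by a narrow margin between KO 5 and WT 3. The WT mean was 8.39 ± 0.0654 (SD, n = 3) and the KO mean 8.57 ± 0.0785 (SD, n = 5). The log2 difference was 0.18 (SE 0.118, 95% interval -0.08 to 0.44, adjusted p = 0.871), or 1.13-fold. The two-sided exact permutation p was 0.0179, the smallest that 3 against 5 arrays can give. Without KO 1 and KO 2 the difference was again 0.18. Its exact permutation p was then 0.1, the lowest that 3 against 3 arrays allow. That p was fixed in advance, since groups that do not overlap stay apart when livers are left out.

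Keap1 (cluster 17524659), whose protein is the sensor and the adaptor for degradation, read 6.532, 6.914 and 6.501 in WT and 6.632, 6.395, 6.739, 6.061 and 6.725 in KO. WT 2 was the highest liver and KO 4 the lowest, and the groups overlapped. The log2 difference was -0.14 (SE 0.185, 95% interval -0.55 to 0.27), and it came to -0.01 without WT 2 and -0.03 without KO 4. A dimmer cluster for Keap1, with a mean of 3.61, differed by 0.04 (SE 0.208), so the 2 clusters of this gene did not share a sign. Neither regulator therefore showed a difference that passed over all genes.

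Hmox1 (cluster 17502573), which encodes the inducible heme oxygenase that opens heme to biliverdin, iron and carbon monoxide, had the largest difference of the set. It read 6.484, 6.486 and 6.694 in WT and 8.523, 7.853, 6.736, 7.168 and 6.997 in KO. The WT livers lay close together, KO 1 and KO 2 were far above them, and KO 3 was just above WT 3. The means were 6.55 ± 0.121 (SD, n = 3) and 7.46 ± 0.726 (SD, n = 5), a log2 difference of 0.90 (SE 0.347, 95% interval 0.13 to 1.67), or 1.87-fold. The limma p was 0.0259 unadjusted and 0.795 adjusted, and the two-sided exact permutation p was 0.0893. The unadjusted limma p was 0.0673 without WT 1, 0.0656 without WT 2 and 0.0542 without KO 2, and 0.0366 without KO 1 and KO 2 together. The spread within KO was wide: 1.19% of all genes had a KO SD as large or larger. Without KO 1 and KO 2 the difference was 0.41 (SE 0.167, adjusted p = 0.818), and without KO 1 alone it was 0.63.

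BACH1 is a heme-sensitive repressor that competes with NRF2 at Hmox1 and is itself known as an NRF2 target. Bach1 read 6.640, 6.622 and 6.533 in WT and 7.410, 7.064, 6.713, 6.705 and 6.688 in KO. KO 1 and KO 2 again read highest and the groups did not overlap, with a log2 difference of 0.32 (SE 0.182, adjusted p = 0.855) that was 0.10 without those 2 livers. Its exact permutation p was 0.125. In the direction of higher in KO, 1.99% of all clusters had groups that did not overlap.

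Hmox1 is also expressed in Kupffer cells, the liver's macrophages, which take up aged red cells. Of 13 Kupffer cell markers 7 were higher and 6 lower in KO, 0 at an unadjusted p under 0.05, with a median log2 difference of 0.11 (-0.01 without KO 1 and KO 2). None of the 13 lay under the array median on all arrays. The mean of the list ran from 6.029 to 6.447 in WT and from 5.793 to 6.827 in KO. It was highest in KO 3 (6.827), the KO liver with the lowest Hmox1, and KO 1 and KO 2 read 6.709 and 6.398. Its part in the Hmox1 values was not tested. Among 9 monocyte and neutrophil markers 5 lay under the array median on every array, and the list mean ran from 2.398 to 2.593 in WT and from 2.346 to 2.626 in KO.

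The rest of the heme list had no common direction. Of 15 measured genes of heme synthesis and turnover, 7 were higher and 8 lower, 0 passed at an unadjusted p under 0.05, and the median log2 difference was -0.04. The 4 with the smallest p were all lower in KO. Cpox and Alad, enzymes of heme synthesis, had differences of -0.35 (SE 0.196) and -0.27 (SE 0.167), both read lowest in KO 1 and KO 2, and both shrank to -0.10 and -0.09 without those livers. Cpox read 9.713, 9.799 and 9.802 in WT and 9.151, 8.951, 9.588, 9.607 and 9.815 in KO, so that KO 5 lay above all WT livers. Blvrb, biliverdin reductase B, differed by -0.26 (SE 0.152) and Ppox, protoporphyrinogen oxidase, by -0.23 (SE 0.171).

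**Figure D2:**
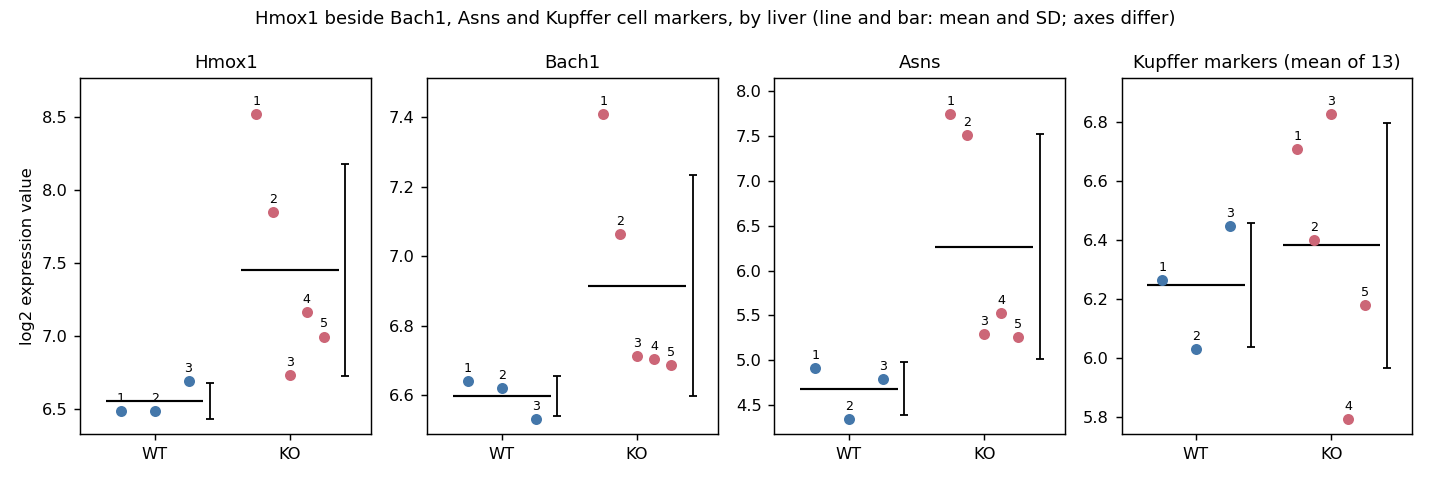
The log2 expression value (vertical axes, which differ in range) of Hmox1, Bach1 and Asns, and the mean over 13 Kupffer cell markers, is plotted for the 3 WT (blue) and 5 KO (red) livers with replicate numbers. Lines are means and bars the SD. KO 1 and KO 2 are the highest livers for the 3 genes, while the Kupffer mean is highest in KO 3.

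Nqo1 (cluster 17512732), the quinone reductase that serves as the usual readout of NRF2, had the largest difference in the other direction. It read 5.473, 5.727 and 4.802 in WT and 4.849, 5.119, 5.030, 4.824 and 4.673 in KO. WT 1 and WT 2 lay above every KO liver, whereas WT 3 lay among them. The means were 5.33 ± 0.478 (SD, n = 3) and 4.90 ± 0.177 (SD, n = 5), a log2 difference of -0.44 (SE 0.204, 95% interval -0.89 to 0.02, adjusted p = 0.838, exact permutation p = 0.143). Its size depended on single WT livers, since the difference was -0.24 without WT 2 and -0.70 without WT 3. The unadjusted limma p was 0.0578 with all livers, 0.00253 without WT 3 and 0.0478 without KO 2. Nqo1 and Hmox1, both classical targets, thus had differences of opposite sign, of which neither passed the adjusted threshold.

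Gclc and Gclm encode the catalytic and the modifier subunit of glutamate-cysteine ligase, the first and limiting step of glutathione synthesis. Gclc (cluster 17519579) read 9.425, 9.726 and 9.625 in WT and 9.461, 9.678, 9.317, 9.485 and 9.434 in KO. The groups overlapped, with 1 KO liver under all WT livers, and the log2 difference was -0.12 (SE 0.134, 95% interval -0.42 to 0.18), -0.05 without WT 2 and -0.18 without KO 1 and KO 2. Gclm (cluster 17402283) read 9.671, 9.838 and 9.761 in WT and 9.801, 9.921, 9.750, 9.751 and 9.677 in KO. Its livers were the most alike of the set, within 0.25 log2 units from lowest to highest, and its difference of 0.02 (SE 0.121, 95% interval -0.24 to 0.29) turned sign when WT 1 (-0.02) or KO 2 (-0.01) was left out.

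Slc7a11, the cystine importer that feeds this synthesis, was below the array median on all 8 arrays, in both of its clusters, so whether its signal exceeds background in these livers is unknown. Its brighter cluster (17405082) ranged from 1.919 to 2.096 in WT and from 1.745 to 2.003 in KO, and the other had a mean of 1.44. The log2 difference of the brighter cluster was -0.125 (SE 0.124, 95% interval -0.399 to 0.150). That of the other cluster was 0.065 (SE 0.141), so the signs differed. Slc3a2, the chain that carries it to the membrane and serves several other transporters, had a log2 difference of -0.03 (SE 0.158). In the list of 11 measured genes of glutathione supply and use, 3 were higher and 8 lower with a median of -0.10, and 0 passed at an unadjusted p under 0.05.

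The gene of that list with the smallest p was Oplah, the 5-oxoprolinase that returns glutamate from glutathione breakdown. It read 9.084, 8.962 and 8.853 in WT and 8.755, 8.746, 8.730, 8.616 and 8.724 in KO. Each KO liver lay below each WT liver, with a log2 difference of -0.25 (SE 0.119, adjusted p = 0.838, exact permutation p = 0.0179) that was -0.28 without KO 1 and KO 2. In the direction of lower in KO, 2.44% of all clusters had groups that did not overlap. Gss, glutathione synthetase, differed by -0.17 (SE 0.132, and -0.27 without KO 1 and KO 2), Ggct, which cleaves gamma-glutamyl peptides, by -0.25 (SE 0.213), and Cth, which makes cysteine, by 0.21 (SE 0.156). Without KO 1 and KO 2 Ggct differed by -0.11 and Cth by 0.09.

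Txnrd1 and Srxn1 belong to the thioredoxin side, the first as the reductase that recharges thioredoxin and the second as sulfiredoxin, which repairs overoxidised peroxiredoxins. Txnrd1 (cluster 17235915) read 8.468, 8.514 and 8.428 in WT and 8.490, 8.424, 8.445, 8.719 and 8.783 in KO. KO 4 and KO 5 were above all WT livers and the other KO livers were close to WT, with a log2 difference of 0.10 (SE 0.134, 95% interval -0.20 to 0.40). The livers highest for Txnrd1, KO 4 and KO 5, were not those highest for Hmox1, KO 1 and KO 2. For Hmox1, KO 4 and KO 5 read 7.168 and 6.997, also above all WT livers. The Txnrd1 difference was 0.18 without KO 1 and KO 2. Srxn1 (cluster 17377666) read 6.487, 6.066 and 6.184 in WT and 6.185, 5.731, 6.148, 6.111 and 6.378 in KO. WT 1 was highest and KO 2 lowest, the groups overlapped, and the difference of -0.14 (SE 0.168, 95% interval -0.51 to 0.24) was -0.01 without WT 1 and -0.04 without KO 2.

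Around these enzymes, 8 of 11 listed genes of the thioredoxin system were measured. Prdx1, Prdx5 and Prdx6 had no cluster with 1 symbol. Of the 8, 7 were lower in KO and 1 higher, with a median of -0.14 (-0.07 without KO 1 and KO 2), where 50.4% of all clusters were lower. The 7 differences below 0 ran from -0.32 to -0.02. At an unadjusted p under 0.05 there were 0 genes of that list with all livers and 2 without KO 1 and KO 2, Txnrd2 and Prdx4, against 5.98% of all clusters. Txnrd2, the mitochondrial reductase, differed by -0.32 (SE 0.184, and -0.50 without KO 1 and KO 2) and Txn1, thioredoxin itself, by -0.20 (SE 0.132). Txn1 read 7.010, 7.090 and 7.094 in WT and 6.762, 6.872, 6.939, 6.680 and 7.081 in KO, so that only KO 5 reached the WT values. Prdx4, the peroxiredoxin of the endoplasmic reticulum, differed by -0.28 (SE 0.226, and -0.54 without KO 1 and KO 2) and Txnrd3 by -0.20 (SE 0.274, and -0.01 without KO 1 and KO 2).

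Osgin1 (cluster 17506081), an oxidative stress induced growth inhibitor, read 8.858, 8.338 and 9.109 in WT and 8.275, 8.892, 8.871, 8.610 and 8.502 in KO. The WT livers alone spanned 0.771 log2 units and enclosed all KO livers except KO 1. The difference of -0.14 (SE 0.204, 95% interval -0.59 to 0.31) was 0.03 without WT 3 and -0.35 without WT 2.

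**Figure D3:**
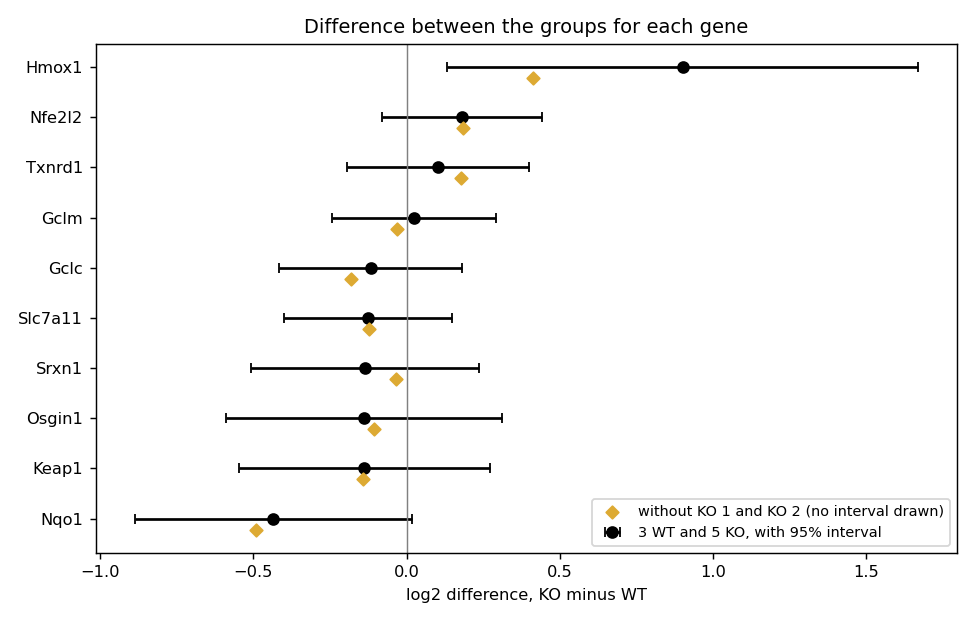
The log2 difference, KO minus WT (horizontal axis), is drawn for each of the 10 genes as a black point with its 95% interval from limma, and as a yellow diamond when KO 1 and KO 2 are left out. The interval of Hmox1, 0.13 to 1.67 before any adjustment over genes, is the only one of the 10 that does not contain 0.

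The livers did not line up across the set. KO 1 held the highest value for 1 of the 10 genes and the lowest for 1, KO 2 the highest for 1 and the lowest for 2, and WT 2 the highest for 4. Measured from each gene's WT mean, the median over the 10 genes lay between -0.056 (KO 4) and 0.02 (KO 2) in the KO livers and between -0.036 and 0.063 in WT. In KO 1, where Hmox1 was 1.968 above its WT mean, 4 genes were above their WT mean and 6 below.

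Of the proteins that work with or against NRF2 and KEAP1, 17 of 18 were measured. The groups did not overlap for 1 of them, Bach1, against 1.99% of all clusters in that direction. There were 11 higher and 6 lower in KO, with a median log2 difference of 0.02, and 1 passed at an unadjusted p under 0.05. That gene was Trim21, a ubiquitin ligase that acts on the KEAP1-binding protein p62, which was lower in KO. It read 5.629, 5.415 and 5.979 in WT and 4.946, 4.890, 5.150, 5.328 and 5.430 in KO. Only KO 5 reached the WT range. The difference was -0.53 (SE 0.178, adjusted p = 0.795, exact permutation p = 0.0536), or -0.37 without KO 1 and KO 2. In that direction 3.32% of all clusters passed. The Trim21 call ended without WT 3, and without KO 1 and KO 2 together. Cul3, the ligase scaffold, differed by 0.09 (SE 0.129), or 0.16 without KO 1 and KO 2. Rbx1 shared its cluster with a pseudogene and is not reported.

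The small MAF partners had differences above 0 with all livers, and close to 0 without KO 1 and KO 2. Maff differed by 0.31 (SE 0.278), Mafk by 0.21 (SE 0.182) and Mafg by 0.18 (SE 0.204), and without those 2 livers by 0.01, 0.06 and -0.03. Maff lay under the array median on 3 of 8 arrays. None of the 3 passed at an unadjusted p under 0.05.

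A wider list of NRF2 targets, with glutathione transferases, export pumps and enzymes that supply NADPH, gave 31 measured genes of 39. In it 13 genes were higher and 18 lower in KO, and the median log2 difference was -0.03. At an unadjusted p under 0.05 there was 1 gene, against 6.08% of all clusters. Without KO 1 and KO 2 there were 2, Gstm4 and Aox1, against 5.98%. Gstm4, a glutathione transferase with close paralogs that its probes may not separate, was the 1 with all livers, at -0.50 (SE 0.221, adjusted p = 0.82), or 1.42-fold lower. Gstm4 read 5.360, 5.648 and 5.085 in WT and 5.285, 4.525, 4.853, 4.457 and 5.192 in KO, with overlap. Aox1, an aldehyde oxidase, was the 1 gene of the list whose groups did not overlap, against 4.43% of all clusters. It read 7.804, 7.889 and 8.021 in WT and 7.797, 7.742, 7.273, 7.538 and 7.642 in KO, a difference of -0.31 (SE 0.149, adjusted p = 0.838, exact permutation p = 0.0536). Entpd5, a nucleotidase of the endoplasmic reticulum, differed by -0.22 (SE 0.149), or -0.13 without KO 1 and KO 2. Gstm3, chosen after its values were seen, had the highest difference of the list, 0.53 (SE 0.417), or 0.12 without KO 1 and KO 2, with WT livers from 4.563 to 5.831 and KO livers from 4.798 to 6.499. The mean of the wider list ran from 7.537 to 7.631 in WT and from 7.404 to 7.612 in KO.

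ATF4, the factor of the amino acid and integrated stress response, also drives Slc7a11 and cooperates with NRF2 at other genes. Of 17 measured ATF4 targets, ATF4 included, 12 were higher and 5 lower, with a median log2 difference of 0.11 both with and without KO 1 and KO 2, while 49.6% of all clusters were above 0. At an unadjusted p under 0.05 there were 2, both higher, against 2.75% of all clusters in that direction. Asns, asparagine synthetase, was again highest in KO 1 and KO 2, at 7.749 and 7.511, against 5.262 to 5.527 in the other KO livers and 4.348 to 4.915 in WT. Its difference was 1.58 (SE 0.582, adjusted p = 0.795, exact permutation p = 0.107). The groups did not overlap, against 1.99% of all clusters in the direction of higher in KO. The difference was 0.68 without KO 1 and KO 2. Ddit4, an inhibitor of mTOR signalling, differed by 0.68 (SE 0.3) with and without them, and overlapped. Atf4 differed by 0.26 (SE 0.17), or 0.13 without KO 1 and KO 2. Aldh1l2, at 0.34 (SE 0.172), lay under the array median on all arrays.

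**Figure D4:**
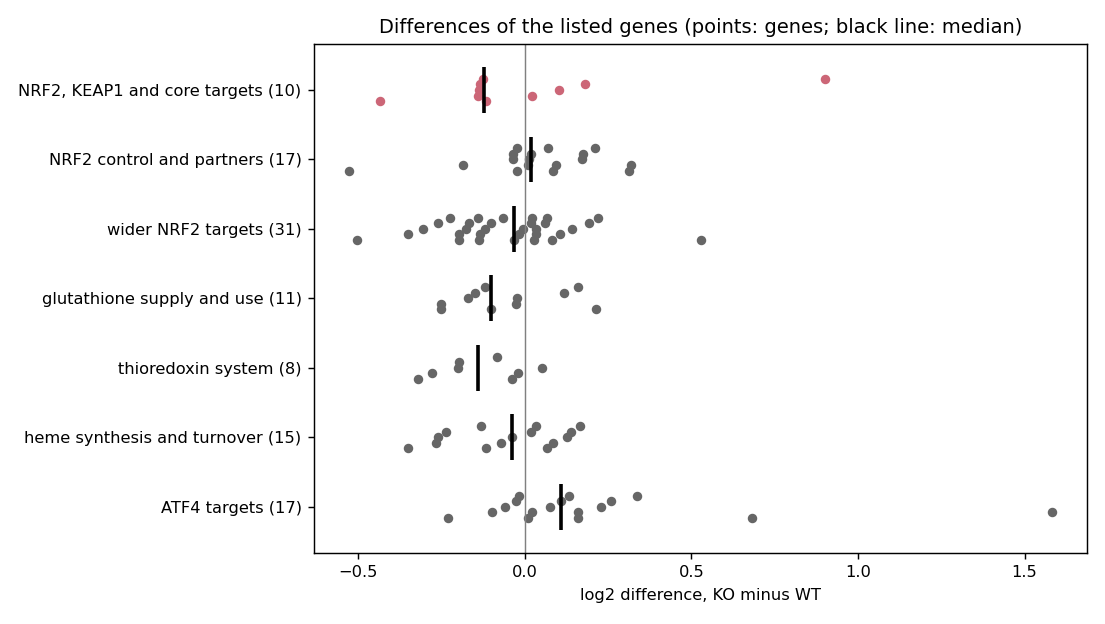
Each point is the log2 difference, KO minus WT (horizontal axis), of 1 gene, in rows for the 10 NRF2 genes and the 6 related lists, with the number measured in parentheses. Black lines are medians, from -0.14 for the thioredoxin system to 0.11 for the ATF4 targets. Hmox1 at 0.90 and Asns at 1.58 lie far to the right of their lists.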

How the data were processed

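RNA of 3 WT and 5 KO liver samples was hybridised to Mouse Gene 2.0 ST arrays, 1 per sample, with groups taken from the titles. The labels describe each sample as from a mouse but do not identify the animals, so the p-values reflect spread among samples, which may be technical. The authors deposited log2 expression values for 41345 transcript clusters. RMA and oligo are named per the submitters' processing notes, and Expression Console per the design text. Which of them made the values, and their versions and settings, are not stated there. Background correction could not be varied, and no slide or scan date was given. RMA compresses differences of dim clusters.

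Annotation gave 23521 clusters 1 symbol. KO minus WT was fitted on these with limma 3.58.1 in R 4.3.3 (lmFit, eBayes, 6 residual degrees of freedom), two-sided, with Benjamini-Hochberg adjustment and a threshold of 0.05. The fit was tested on simulated data. Single genes also had an exact permutation test over 56 splits. The number of arrays limits precision. The members and lists were chosen with earlier results of these data known. Named genes are all members, partners of members and, per related list, the 4 with the smallest p. Gstm3 and Slc7a5 were added. All 10 members matched RefSeq (GRCm38.p6) by Entrez ID, and RefSeq supplied the promoter sequences. Alternatives were every cluster, a mean of at least 5, trend and robust eBayes, median centring, another quantile normalization, a replicate block, the mean of a gene's clusters, and omission of arrays.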

Additional observations from a re-analysis of the deposited data

Results flagged for a closer look

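Among the 36 genes looked at for a stray KO array, 10 of them members, 2 had one and no member of the NRF2 set did. The 36 do not cover the related lists in full, so stray values in other listed genes are not counted. Oplah read 8.616 in KO 4, below the next KO value of 8.724. Ggct read 4.467 in KO 5, above the next KO value of 3.877. Chance gives a stray value in about 1 of 20 such groups.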

How the results depend on the processing

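No NRF2 member passed the adjusted threshold under any of the 15 alternatives in which members were counted. Slc7a11 was not among those tested with a mean of at least 5. With the mean of a gene's clusters only Keap1 and Slc7a11 were read out (limma adjusted p = 0.976 and 0.982). The count of all clusters past it, 0 in the reported analysis and with any single array left out, was 3 with every cluster tested, 1 with a mean of at least 5, and 3 with trend and robust settings. Same-numbered samples did not deviate together (correlations -0.048, 0.016 and 0.021), so the numbers are not taken as pairs, and WT 1 and WT 3 were closest to other KO numbers. The replicate block gave 1 cluster past the threshold, a member median of -0.075 and a Txnrd1 difference turned to -0.017. Members at an unadjusted p under 0.05, 1 as reported, were 2 with a mean of at least 5. With single arrays left out they were 0 to 2. There were 0 without WT 1 or WT 2, where Hmox1 was lost, and 2 without WT 3, Hmox1 and Nqo1. Without KO 2, Nqo1 took the place of Hmox1. The share of all clusters under that p was not counted in these settings, so a change in the member count has no baseline. Members whose groups did not overlap were 2 to 3 with single arrays left out, a count that leaving arrays out cannot lower. The shares of all clusters given above are for 3 against 5 arrays and are no baseline for fewer arrays. The member median of -0.12 was -0.07 without KO 1 and KO 2, -0.039 with the mean of a gene's clusters, and -0.104 to -0.028 with single arrays left out. Gclm turned to -0.031 without KO 1 and KO 2 and ranged from -0.019 to 0.064 with single arrays left out, and Osgin1 from -0.353 to 0.032. The other 7 members kept their sign under every alternative run for them, Nfe2l2 from 0.14 to 0.21 and Hmox1 from 0.63 to 1.08 with single arrays left out. The causes were not tested. Dim clusters such as those of Slc7a11 limit what the arrays can show.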
